A study of Mus musculus with 89 samples.

Results

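The comparison described here is that of trisomic Ts65Dn embryonic forebrain with the forebrain of euploid littermates (EupTs65Dn), for genes that lie outside the triplicated chromosome segments. Members were taken by the genotype label: 23 Ts65Dn and 18 EupTs65Dn embryos, 41 of the 89 arrays of the series. In Ts65Dn mice a freely segregating marker chromosome adds copies of distal genes of chromosome 16 (Mmu16) and of proximal genes of chromosome 17 (Mmu17). Ts65Dn dams were mated with B6EiC3Sn.BLiAF1/J males on a mixed B6 and C3H background, so the extra chromosome came from the mother in every trisomic embryo and the euploid embryos grew beside trisomic ones in the same trisomic dams. All embryos were untreated and taken at embryonic day 18.5, and each array holds RNA of 1 embryo. The 6 litters (dams TS11, TS18, TS42, TS113, TS125 and TS137) each held 3 to 5 Ts65Dn and 2 to 4 EupTs65Dn embryos. Labels gave 13 females and 10 males in Ts65Dn and 9 females and 9 males in EupTs65Dn. The second colony, used only for comparison, holds Ts66Yah embryos, whose extra chromosome has the Mmu16 part without the Mmu17 part, and euploid EupTs66Yah littermates of the same age.

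Genes of the triplicated segments are carried in an extra copy, and such genes are commonly transcribed more. Genes elsewhere in the genome are present in the usual number of copies in both groups, and they are the subject here. At this age the mouse forebrain is closing the main phase of neuron production, glial precursors are spreading, and synapses are beginning to form. Because whole forebrain was measured, fewer cells of a type and less RNA per cell cannot be told apart in any result below.

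Values are log2 signals per probe set, and a difference is Ts65Dn minus EupTs65Dn with the litter as a block (limma, two-sided, Benjamini-Hochberg adjustment over all 22206 probe sets, threshold 10%). Array means ran from 5.26 to 5.33 in Ts65Dn, against 5.29 to 5.31 in EupTs65Dn. The mean of the 121 probe sets of the Mmu16 segment ran from 5.19 to 5.59 in Ts65Dn (median 5.51), against 5.19 to 5.27 in EupTs65Dn (median 5.24). The library labelled Ts65Dn replicate 18, of litter TS18, had the lowest of the Ts65Dn values, 5.19, which is inside the EupTs65Dn range. Its mean over the Mmu17 segment, 6.49, was also inside the EupTs65Dn range of 6.37 to 6.58 (Ts65Dn median 6.84). Its genotype label was kept, and whether that label is right was not tested. Results are given with this library and, where it matters, without it. Signal of Y-linked genes contradicted the labelled sex in 4 Ts65Dn arrays (replicates 6, 11, 15 and 23) and 4 EupTs65Dn arrays (replicates 7, 8, 12 and 13). Cortical excitatory neuron genes averaged 8.14, 8.34 and 8.50 (lowest, median and highest embryo) in Ts65Dn and 8.28, 8.36 and 8.47 in EupTs65Dn. Midbrain and hindbrain genes averaged 3.52, 3.95 and 4.26 in Ts65Dn and 3.62, 3.82 and 4.01 in EupTs65Dn. Levels of different probe sets are not compared, since probes differ in brightness, so these averages do not test the tissue label.

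Results below describe the antiviral genes Ifitm2 and Ifitm3, the chromosome condensation gene Ncapg and the stress-induced gene Ddit4, or their gene groups. The regulatory sequences of these 4 genes are shown. Each runs from 250 bases before the transcription start to 50 bases after it (RefSeq, GRCm38.p6), 5′ to 3′ on the strand of the gene. Capitals mark the interferon-stimulated response element (GAAA, any 2 bases, GAAA) in both Ifitm promoters, the cell cycle homology element TTTGAA and the CCAAT box in Ncapg, and the core hypoxia response element ACGTG in Ddit4, searched on both strands. These 4 promoters lie at chr7:140955912-140956211 (minus strand, Ifitm2), chr7:141010695-141010994 (minus strand, Ifitm3), chr5:45669675-45669974 (plus strand, Ncapg) and chr10:59951721-59952020 (minus strand, Ddit4).
Ifitm2: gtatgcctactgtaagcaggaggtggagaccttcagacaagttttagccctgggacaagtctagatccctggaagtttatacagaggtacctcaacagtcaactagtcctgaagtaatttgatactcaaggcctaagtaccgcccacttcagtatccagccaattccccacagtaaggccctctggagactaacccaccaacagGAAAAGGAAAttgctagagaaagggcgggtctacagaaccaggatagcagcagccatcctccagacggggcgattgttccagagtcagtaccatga
Ifitm3: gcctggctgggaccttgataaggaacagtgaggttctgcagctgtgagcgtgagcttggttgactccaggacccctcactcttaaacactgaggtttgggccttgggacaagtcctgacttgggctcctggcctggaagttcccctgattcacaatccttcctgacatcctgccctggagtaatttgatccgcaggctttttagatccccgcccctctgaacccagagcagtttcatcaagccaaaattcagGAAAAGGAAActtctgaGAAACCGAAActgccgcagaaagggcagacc
Ncapg: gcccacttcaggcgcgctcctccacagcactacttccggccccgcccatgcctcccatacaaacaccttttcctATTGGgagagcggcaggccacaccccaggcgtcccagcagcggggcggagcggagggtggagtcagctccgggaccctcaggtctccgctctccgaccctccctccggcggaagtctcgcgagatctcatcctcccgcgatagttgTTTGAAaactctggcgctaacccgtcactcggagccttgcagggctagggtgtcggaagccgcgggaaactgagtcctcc
Ddit4: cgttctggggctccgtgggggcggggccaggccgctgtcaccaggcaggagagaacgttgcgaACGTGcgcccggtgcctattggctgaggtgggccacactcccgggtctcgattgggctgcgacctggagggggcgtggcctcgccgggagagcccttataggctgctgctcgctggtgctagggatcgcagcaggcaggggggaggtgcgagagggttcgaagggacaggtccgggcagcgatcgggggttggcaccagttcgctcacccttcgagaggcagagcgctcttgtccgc
The interferon element was found in the promoters of 3.99% of 27025 genes and in 23 of 43 measured interferon response genes with a promoter in the table. TTTGAA was found in 20.2% of all genes and in 31 of 43 mitosis genes, CCAAT in 41.1% and 29 of 43, and ACGTG in 21.8% and in 24 of 32 glycolysis and hypoxia genes. A match describes these letters and does not show that a factor binds there.

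Outside both segments, 28 named genes passed the test, 20 higher and 8 lower in Ts65Dn. That is 0.144% of the 19410 probe sets tested there (0.103% higher and 0.0412% lower), against 45.5% of the 121 probe sets of the Mmu16 segment and 61% of the 41 of the Mmu17 segment. The median difference over all probe sets outside was -0.0018, with 49.2% higher and 50.8% lower. The genes that rose were changed 1.15-fold to 1.58-fold (median 1.29), and those that fell lay between 0.639 and 0.884 of the euploid level (median 0.801). For scale, App, the amyloid precursor gene of the Mmu16 segment, rose 1.31-fold (log2 0.39, SE 0.044) and Ezr, the ezrin gene of the Mmu17 segment, rose 1.46-fold (log2 0.55, SE 0.059). The triplicated superoxide dismutase gene Sod1 rose 1.39-fold, the kinase gene Dyrk1a 1.32-fold and the chromatin remodeller gene Arid1b 1.35-fold. At an unadjusted p under 0.05, 1020 probe sets outside differed (5.26%). The set of called genes changed when single litters were left out, which also leaves fewer arrays for the test. Without TS11 14 genes passed, 12 of them among the 28, and without each other litter in turn 20 to 25 passed. Among the 28, 14 kept their call without TS125 and 14 without TS18, 16 without TS113 and 16 without TS137, and 18 without TS42. Without the 8 arrays in which Y-linked signal contradicts the labelled sex, 18 passed, 12 of them among the 28, and without Ts65Dn replicate 18, 32 passed, 24 of them among the 28. Calls were lost in 8 or more of the alternative settings for 12 genes: Cpa6, Pram1, Vinac1, Krt42, Sytl5, Idh2, Fhit, Spats2l, Gramd1a, Ddit4, Ostn and Erich6b.

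**Figure D1:**
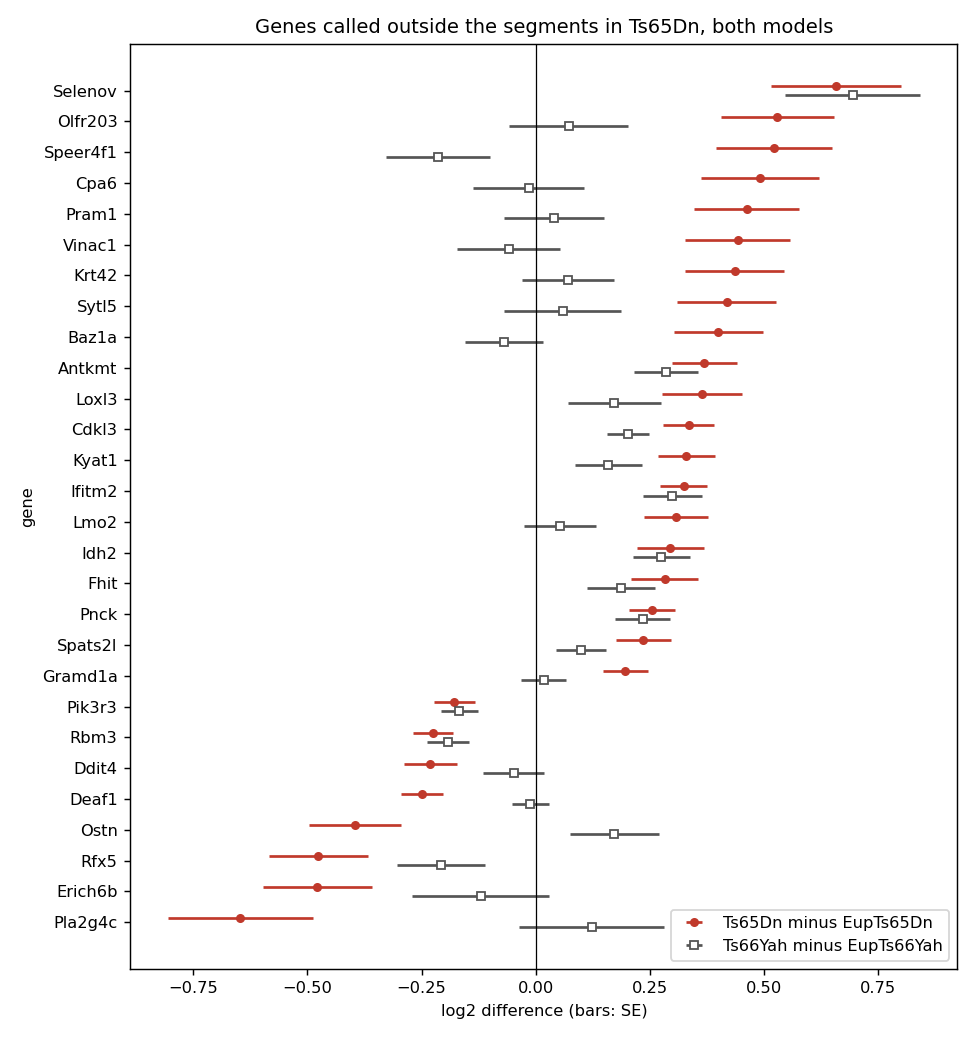
Log2 difference (horizontal axis, bars are SE) of the 28 genes called outside the segments, Ts65Dn minus EupTs65Dn as red circles and Ts66Yah minus EupTs66Yah, without the low-spread EupTs66Yah array, as open squares. Differences in Ts65Dn run from 0.66 for Selenov to -0.65 for Pla2g4c, and the Ts66Yah difference has the same sign for 22 of the 28 (19 with that array kept).

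Among the 28, 4 genes kept their call under each of the alternative settings run for them, and all of them were higher in Ts65Dn: Ifitm2, Cdkl3, Kyat1 and Antkmt. Ifitm2 encodes an interferon-induced membrane protein that blocks the entry of viruses into cells. It read 7.64, 7.94 and 8.29 in Ts65Dn (lowest, median and highest embryo) and 7.44, 7.61 and 8.08 in EupTs65Dn. All 23 Ts65Dn embryos lay above the euploid median, although the groups overlap, and the rise was 1.25-fold (log2 0.32, SE 0.051, adjusted p = 8.0e-05). It was higher in Ts65Dn in all 6 litters, by 0.20 in TS18 to 0.45 in TS113. Its lowest Ts65Dn value, 7.64, was that of replicate 18.

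Values of 2 other genes of the Ifitm cluster are given as well, chosen after they were seen. Ifitm1, adjacent to Ifitm2 in gene order, read 5.36, 5.97 and 6.43 in Ts65Dn and 5.45, 5.80 and 6.13 in EupTs65Dn (log2 0.16, SE 0.071, adjusted p = 0.81). Ifitm3 read 3.94, 5.25 and 5.97 in Ts65Dn and 4.35, 5.21 and 5.73 in EupTs65Dn (log2 0.12, SE 0.12, adjusted p = 0.98). Neither passed the test. The Ifitm3 promoter printed above holds 2 matches to the response element and that of Ifitm2 holds 1. Whether the 3 genes differ from each other in their response was not tested.

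Cdkl3 encodes a serine/threonine kinase related to cyclin-dependent kinases. It read 7.18, 7.58 and 7.91 in Ts65Dn and 6.998, 7.23 and 7.40 in EupTs65Dn, a 1.26-fold rise (log2 0.34, SE 0.056, adjusted p = 0.0002). The overlap of the groups was small, and 19 of 23 Ts65Dn embryos lay above every euploid embryo. Kyat1 encodes an aminotransferase that makes kynurenic acid, a tryptophan metabolite that acts on glutamate receptors. It read 6.74, 7.01 and 7.39 in Ts65Dn and 6.39, 6.72 and 7.06 in EupTs65Dn, a 1.26-fold rise (log2 0.33, SE 0.062, adjusted p = 0.0015), with all 23 Ts65Dn embryos above the euploid median. Antkmt, whose product methylates the mitochondrial ADP/ATP carrier, read 6.74, 7.05 and 7.52 in Ts65Dn and 6.10, 6.69 and 7.10 in EupTs65Dn. It rose 1.29-fold (log2 0.37, SE 0.071, adjusted p = 0.0023), again with all 23 embryos above the euploid median. Antkmt lies on chromosome 17 outside the triplicated segment.

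Other well expressed genes rose as well. Pnck, which encodes a calmodulin-dependent kinase, read 7.97, 8.27 and 8.51 in Ts65Dn and 7.68, 8.02 and 8.38 in EupTs65Dn (1.19-fold, log2 0.25, SE 0.05, adjusted p = 0.003). Idh2, the mitochondrial isocitrate dehydrogenase that makes NADPH, read 7.63, 8.50 and 8.81 in Ts65Dn and 7.60, 8.19 and 8.43 in EupTs65Dn (1.23-fold, log2 0.29, SE 0.073, adjusted p = 0.054). For Idh2, 15 of 23 Ts65Dn embryos lay above every euploid embryo, while the lowest Ts65Dn embryo was level with the lowest euploid one. Gramd1a, whose product moves cholesterol between membranes, rose 1.15-fold (log2 0.20, SE 0.048, adjusted p = 0.053), and Fhit, a diadenosine triphosphate hydrolase gene, 1.22-fold (log2 0.28, SE 0.074, adjusted p = 0.091). Fhit was lower in Ts65Dn in litter TS42, by 0.22, and higher in the other 5 litters. Spats2l rose 1.18-fold (log2 0.24, SE 0.06, adjusted p = 0.072).

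Among genes of chromatin, matrix and transcription, Baz1a, a subunit gene of ISWI nucleosome remodellers, read 5.15, 5.69 and 6.26 in Ts65Dn and 4.74, 5.33 and 5.94 in EupTs65Dn (1.32-fold, log2 0.40, SE 0.098, adjusted p = 0.049). Loxl3, a lysyl oxidase gene of collagen cross-linking, read 5.48, 6.01 and 6.26 in Ts65Dn and 4.87, 5.61 and 6.12 in EupTs65Dn (1.29-fold, log2 0.36, SE 0.087, adjusted p = 0.039). Lmo2, a transcriptional cofactor gene of blood and vessel formation, rose 1.24-fold (log2 0.31, SE 0.069, adjusted p = 0.019). Of 18 endothelial genes 6 were higher and 12 lower, with 0 called.

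The largest rises came from dimmer probe sets. Selenov, which encodes selenoprotein V, read 4.40, 5.26 and 5.91 in Ts65Dn and 3.62, 4.49 and 5.10 in EupTs65Dn, a 1.58-fold rise (log2 0.66, SE 0.14, adjusted p = 0.011). Its rise ranged from 0.04 in litter TS125 to 1.33 in litter TS137. The others that rose were Olfr203 (an olfactory receptor gene), Speer4f1, Cpa6 (a carboxypeptidase gene), Pram1, Vinac1, Krt42 (a keratin gene) and Sytl5 (a Rab effector gene), by 1.34-fold for Sytl5 to 1.44-fold for Olfr203. Olfr203 and Speer4f1 belong to multigene families whose members may share probes, so their identity is uncertain. Cpa6, for example, read 2.44, 2.96 and 3.96 in Ts65Dn and 2.19, 2.43 and 3.61 in EupTs65Dn, near the bottom of the scale, with all 23 Ts65Dn embryos above the euploid median and 3 above every euploid embryo.

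Of the 8 genes that fell, Rbm3 and Deaf1 had the smallest adjusted p. Rbm3 encodes an RNA-binding protein that is induced by cold. It read 10.93, 11.19 and 11.68 in Ts65Dn and 11.27, 11.47 and 11.60 in EupTs65Dn and fell to 0.855 of the euploid level (log2 -0.23, SE 0.044, adjusted p = 0.0026). In 15 of 23 Ts65Dn embryos it lay below every euploid embryo, and the highest Ts65Dn value, 11.68, was that of replicate 18. Deaf1 encodes a transcription factor in which human mutations cause a neurodevelopmental disorder. It read 8.42, 8.62 and 9.02 in Ts65Dn and 8.73, 8.89 and 9.12 in EupTs65Dn and fell to 0.842 of the euploid level (log2 -0.25, SE 0.047, adjusted p = 0.0015). Here 17 of 23 Ts65Dn embryos lay below every euploid embryo, and the highest Ts65Dn value, 9.02, again belonged to replicate 18. Without that library the adjusted p was 0.00021 for Rbm3 and 0.00023 for Deaf1.

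Ddit4 and Pik3r3 act on growth signalling. Ddit4, whose product restrains the mTORC1 kinase complex and is induced by hypoxia and glucocorticoids, read 7.57, 7.93 and 8.41 in Ts65Dn and 7.86, 8.25 and 8.39 in EupTs65Dn (log2 -0.23, SE 0.058, adjusted p = 0.065). Replicate 18 lay at 8.35, and without it the difference was -0.25 (adjusted p = 0.017). Pik3r3, whose product is a regulatory partner of the PI3 kinase catalytic chain, read 9.08, 9.30 and 9.56 in Ts65Dn and 9.32, 9.48 and 9.65 in EupTs65Dn (log2 -0.18, SE 0.045, adjusted p = 0.062). Both groups overlap for each of these genes, with 9 of 23 Ts65Dn embryos below every euploid embryo for Ddit4 and 13 of 23 for Pik3r3.

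Rfx5, which encodes a factor that binds the promoters of MHC class II genes, read 4.73, 5.89 and 6.55 in Ts65Dn and 5.97, 6.38 and 6.87 in EupTs65Dn and fell to 0.719 of the euploid level (log2 -0.48, SE 0.11, adjusted p = 0.02). Its litter differences ran from -0.10 in TS137 to -1.01 in TS42, where the lowest embryo of all, at 4.73, was found. Ostn (a secreted peptide gene), Erich6b and Pla2g4c (a phospholipase gene) fell too, to 0.76, 0.718 and 0.639 of the euploid level. These 3 read low on the array, with Ts65Dn medians of 2.29, 2.02 and 2.81 against euploid medians of 2.74, 2.56 and 3.32.

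**Figure D2:**
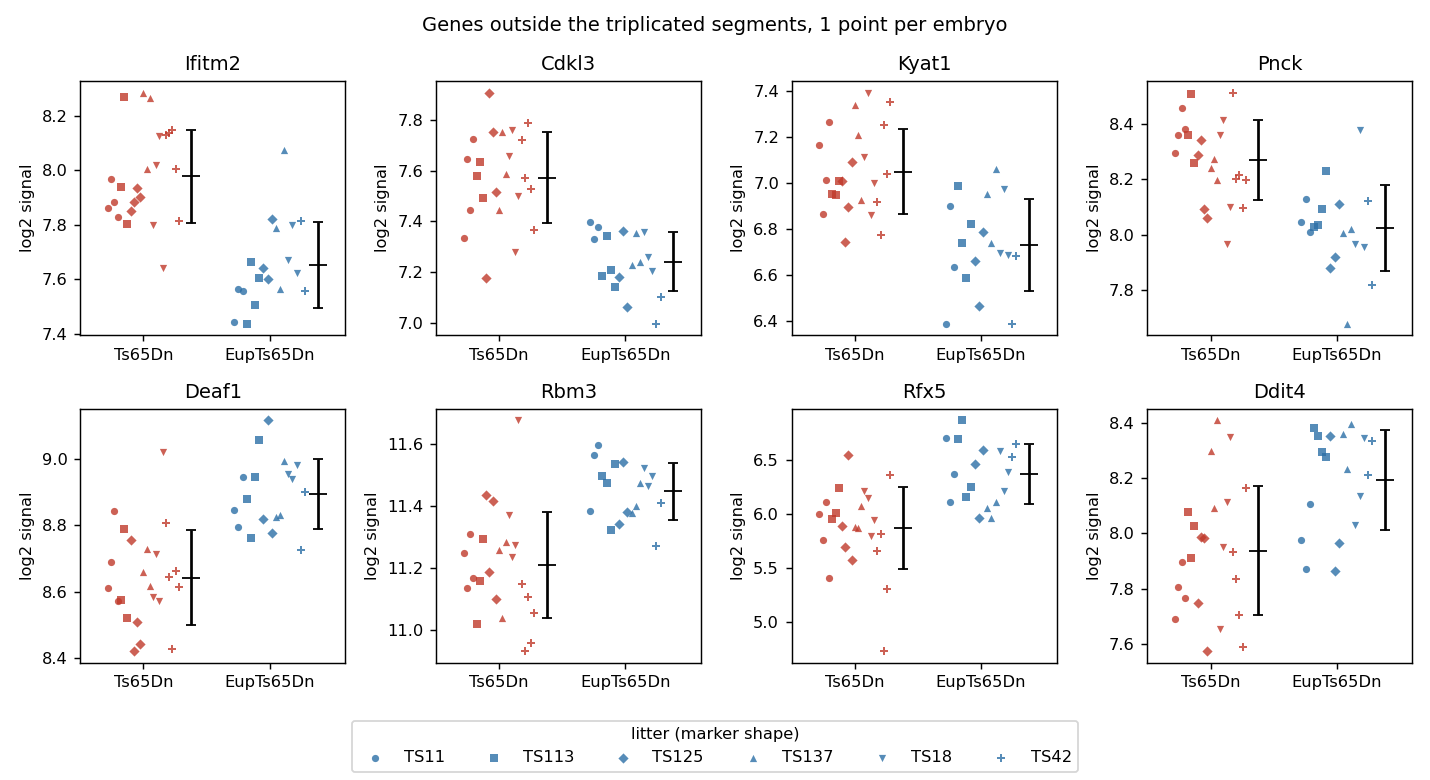
Log2 signal (vertical axis) of 8 called genes in every embryo, Ts65Dn in red and EupTs65Dn in blue, with litters as marker shapes and the group mean ± SD in black. For Deaf1 and Rbm3 the highest Ts65Dn point, at 9.02 and 11.68, is replicate 18 of litter TS18.

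For 25 of the 28 genes the difference had the same direction in all 6 litters, and for the other 3 (Vinac1, Sytl5 and Fhit) in 5 litters. The genes were called from these same litters, so this describes them and is not separate support for the calls. None of the 28 separated the groups fully: between 1 and 19 of 23 Ts65Dn embryos lay past every euploid embryo. No interaction of genotype with litter passed the test (limma, 0 called at an adjusted p under 0.10, 1673 of 22206 probe sets at an unadjusted p under 0.05, 7.53%). None passed for genotype and labelled sex either (0 called, 957 at an unadjusted p under 0.05, 4.31%).

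The called genes were scattered over the genome. Chromosome 7 held 6 of them (Ifitm2, Deaf1, Selenov, Pla2g4c, Gramd1a and Idh2), which is 0.329% of its 1825 probe sets. Chromosomes 2 and X held 3 each, 0.183% and 0.375% of their probe sets. Outside the segments, chromosome 16 held 2 (Olfr203 and Ostn, 0.404%) and chromosome 17 held 2 (Antkmt and Pram1, 0.217%). Of the 280 probe sets that are the 5 nearest on each side of a called gene in gene order, 0 were called and 16 (5.71%) had an unadjusted p under 0.05. A further 9 called probe sets had no single gene name or no place in the gene table (0.342% of 2634), and all were higher. Their IDs place 4 on chromosome 17, 2 on chromosome 16 and 1 each on chromosomes 6, 11 and 14. Those on chromosomes 16 and 17 may lie inside the triplicated segments, which was not tested. The 9 are therefore not counted as genes outside.

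The pathways and cell types outside the segments were followed through 36 gene lists, with triplicated members taken out. The lists are described by counts and medians beside the same values over all probe sets outside, 49.2% higher, 50.8% lower and a median of -0.0018. Counts are of probe sets, which is 1 per gene except where said. Few list members passed the test, so the values below are differences of means unless a gene is said to have risen or fallen.

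**Figure D3:**
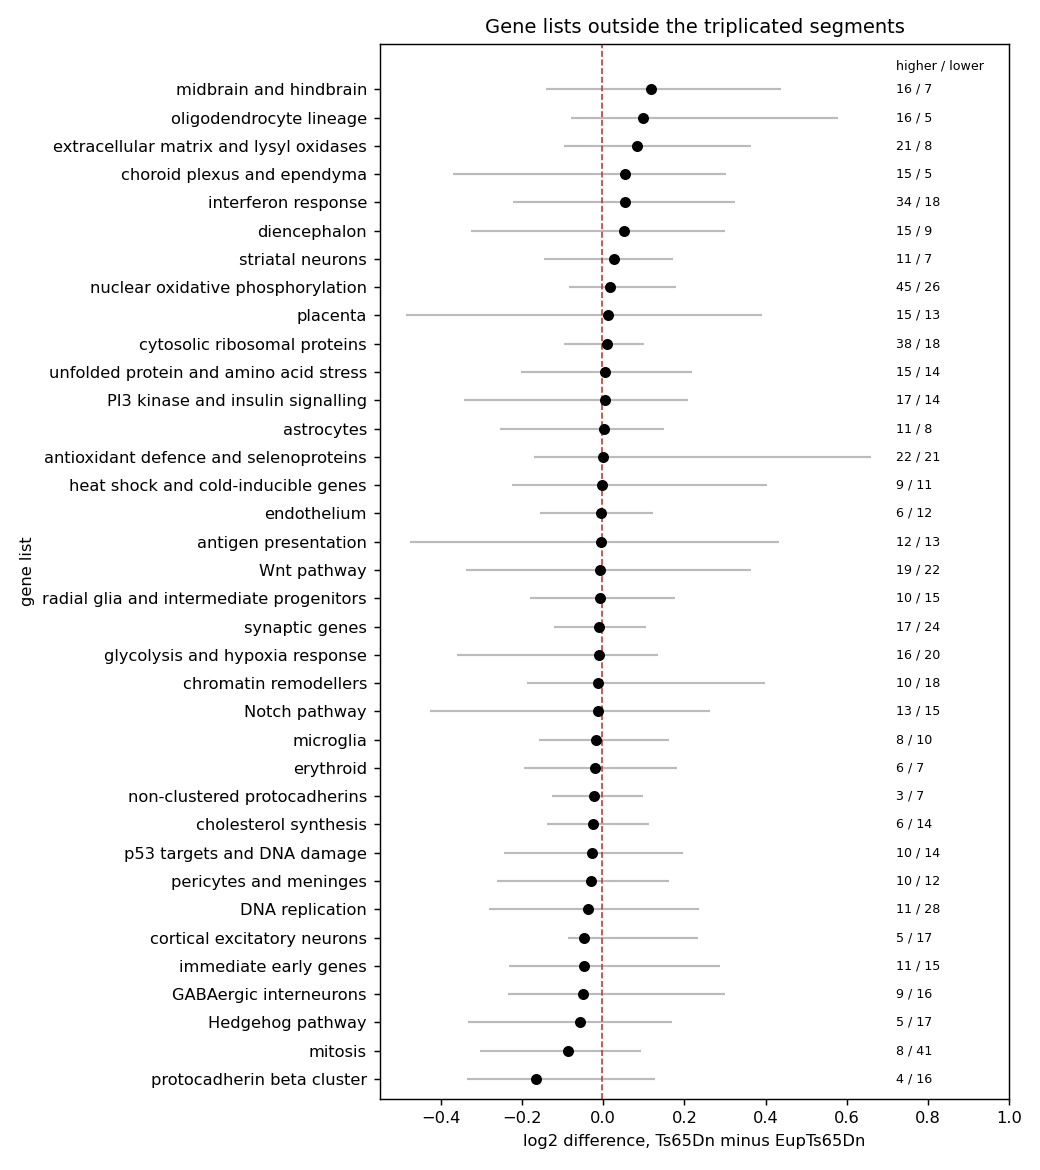
Median (black point) and range (grey line) of the log2 difference, Ts65Dn minus EupTs65Dn, over the measured members of 36 gene lists outside the segments, with the numbers of members higher and lower at the right. The dashed red line is the median over all probe sets outside, and list medians run from 0.12 for midbrain and hindbrain genes to -0.17 for the protocadherin beta cluster.

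Oligodendrocyte lineage genes had higher means in Ts65Dn in 16 of 21 cases (median 0.10), with 0 called. Olig1 and Olig2, the lineage factors, are triplicated and are not among the 21. The list mean lay at 4.84, 4.996 and 5.21 in Ts65Dn and 4.75, 4.88 and 5.06 in EupTs65Dn, a blocked difference of 0.11, SE 0.026. It was higher in Ts65Dn in all 6 litters, and 20 of 23 Ts65Dn embryos lay above the euploid median. Gjc3, a connexin gene of myelinating cells, read 2.37, 3.76 and 4.75 in Ts65Dn and 2.29, 3.08 and 3.996 in EupTs65Dn (log2 0.58, SE 0.19, adjusted p = 0.4). Gpr17, a receptor gene of differentiating oligodendrocyte precursors, read 5.41, 5.87 and 6.44 in Ts65Dn and 4.84, 5.64 and 6.16 in EupTs65Dn (log2 0.30, SE 0.1, adjusted p = 0.51).

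The protocadherin beta cluster encodes adhesion molecules that neurons express in varied combinations and that help a neuron tell its own branches from others. Of 20 measured members 16 had lower means in Ts65Dn (median -0.17), 8 of them at an unadjusted p under 0.05, where 2.47% of all probe sets outside were lower, and 0 were called. The list mean lay at 5.18, 5.40 and 5.74 in Ts65Dn and 5.25, 5.59 and 5.97 in EupTs65Dn (-0.13, SE 0.043), below the euploid median in 21 of 23 Ts65Dn embryos. By litter the difference ran from -0.23 in TS11 and TS113 to 0.04 in TS125. Pcdhb17 read 5.87, 6.37 and 6.70 in Ts65Dn and 6.07, 6.63 and 6.99 in EupTs65Dn (log2 -0.24, SE 0.072, adjusted p = 0.24), and Pcdhb20 had a difference of -0.20, SE 0.065 (adjusted p = 0.36). Members of the cluster are similar in sequence, and their probe sets may not be separate measurements. Of the 10 non-clustered protocadherins 7 were lower (median -0.023).

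Most genes of the mitosis and DNA replication lists had slightly lower means in Ts65Dn, and 0 of them passed the test. Of 49 mitosis genes 41 had lower means in Ts65Dn (median -0.086). At an unadjusted p under 0.05, 6 of them were lower, where 2.47% of all probe sets outside were lower. The list mean lay at 5.82, 5.94 and 6.22 in Ts65Dn and 5.80, 5.998 and 6.27 in EupTs65Dn (-0.08, SE 0.035), and it was below the euploid median in 18 of 23 Ts65Dn embryos. The difference was lower in 4 litters and near 0 in TS137 (0.0031) and TS18 (0.014). Ncapg, a condensin subunit gene, read 5.07, 5.54 and 6.02 in Ts65Dn and 5.35, 5.74 and 6.17 in EupTs65Dn (log2 -0.25, SE 0.081, adjusted p = 0.34), and Nusap1, a spindle microtubule gene, had a difference of -0.17, SE 0.059 (adjusted p = 0.51). The 31 mitosis genes with TTTGAA in the promoter had a median of -0.081 and the 12 without it -0.065. Of 39 DNA replication genes 28 were lower (median -0.036; the list mean was higher in TS125 and TS137), among them Orc6 (-0.20, SE 0.087, adjusted p = 0.81), an origin recognition gene, and Pola1 (-0.19, SE 0.081, adjusted p = 0.81), a primase polymerase subunit gene. Genes of the radial glia and intermediate progenitor list, some of which are also on the astrocyte list, were split 10 higher and 15 lower (median -0.007).

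**Figure D4:**
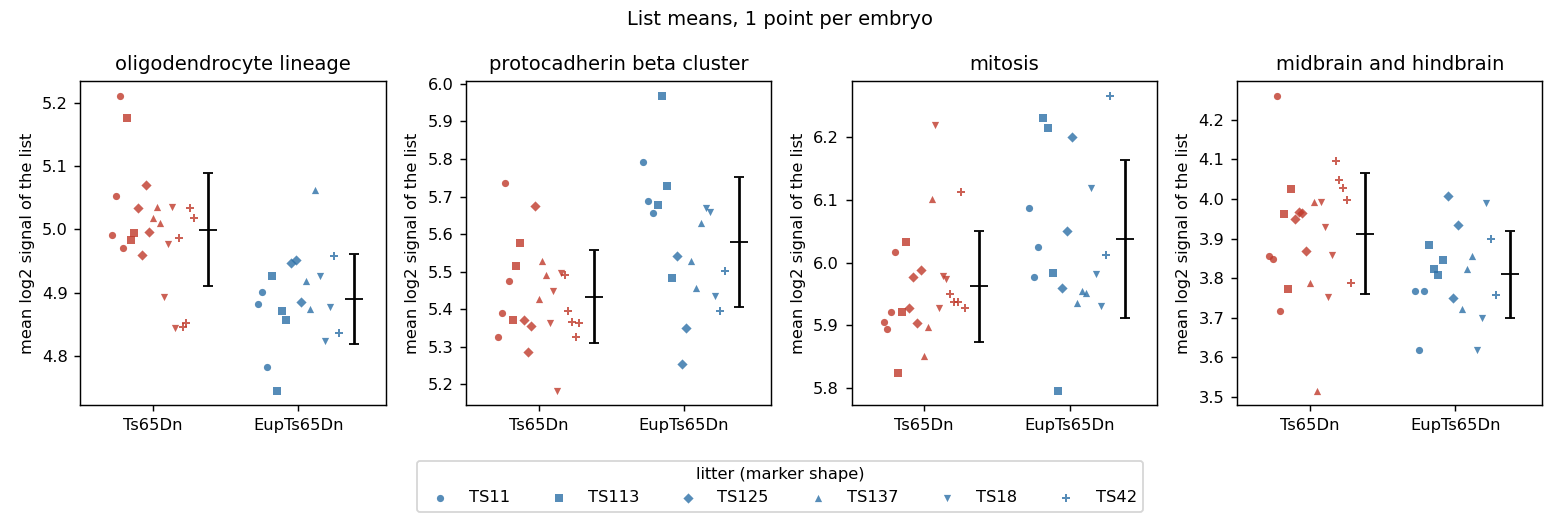
Mean log2 signal of 4 gene lists in every embryo (vertical axis), Ts65Dn in red and EupTs65Dn in blue, with litters as marker shapes and the group mean ± SD in black. Of 23 Ts65Dn embryos, 20 lie above the euploid median for oligodendrocyte genes, 21 below it for protocadherin beta genes, 18 below it for mitosis genes and 17 above it for midbrain and hindbrain genes.

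Of 52 interferon response genes 34 had higher means in Ts65Dn (median 0.054), 3 of them at an unadjusted p under 0.05, where 2.79% of all probe sets outside were higher, and Ifitm2 was the 1 that rose. The list mean was 4.09, 4.24 and 4.50 in Ts65Dn and 4.02, 4.19 and 4.43 in EupTs65Dn (0.06, SE 0.033), higher in 4 litters and lower in TS11 and TS125. The 23 genes with the interferon element in the promoter had a median of 0.047 and the 20 without it 0.072. Antigen presentation genes were split 12 higher and 13 lower around the fall of Rfx5 (median -0.005).

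Medians of the neuron lists ran from -0.050 for interneuron genes to 0.028 for striatal genes. Of 22 probe sets of 21 cortical excitatory neuron genes 17 were lower, within a range of -0.09 to 0.23 (median -0.046), and Crym, a thyroid hormone binding protein gene, had the highest difference (0.23, SE 0.074, adjusted p = 0.34), beside Slc17a7, a vesicular glutamate transporter gene (0.13, SE 0.077, adjusted p = 0.93). Of 25 interneuron genes 16 were lower (median -0.050), with Maf at -0.22, SE 0.076 (adjusted p = 0.45) and Lhx6 at -0.20, SE 0.076 (adjusted p = 0.67), transcription factor genes of interneurons born in the ventral forebrain. Striatal genes were split 11 higher and 7 lower (median 0.028), with the opioid receptor gene Oprm1 at -0.15, SE 0.066 (adjusted p = 0.86) and the transcription factor gene Ebf1 at -0.14, SE 0.071 (adjusted p = 0.9). Of 41 synaptic genes 17 were higher and 24 lower (median -0.009), with the adhesion genes Lrrtm2 at -0.10, SE 0.052 (adjusted p = 0.9) and Nlgn1 at -0.12, SE 0.065 (adjusted p = 0.91). Of 19 astrocyte genes 11 were higher (median 0.003), with Aldoc, an aldolase gene, at 0.13, SE 0.04 (adjusted p = 0.26) and Agt, the angiotensinogen gene, at -0.25, SE 0.1 (adjusted p = 0.75).

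Among signalling pathways, 17 of 22 Hedgehog genes were lower (median -0.057), with 0 called. Ihh, a ligand gene with a dim probe set, had 2.34, 2.80 and 3.96 in Ts65Dn and 2.74, 3.18 and 3.86 in EupTs65Dn (log2 -0.33, SE 0.1, adjusted p = 0.32), and Gsk3b, a kinase gene shared with Wnt signalling, had a difference of -0.10, SE 0.037 (adjusted p = 0.53). Notch genes were split 13 higher and 15 lower, with the target gene Heyl at -0.43, SE 0.13 (adjusted p = 0.27) and the target gene Hes5 at 0.18, SE 0.068 (adjusted p = 0.69). Wnt genes were split 19 higher and 22 lower, with the ligand gene Wnt3a at 0.36, SE 0.12 (adjusted p = 0.37) and the inhibitor gene Wif1 at -0.34, SE 0.14 (adjusted p = 0.76). PI3 kinase and insulin genes were split 17 higher and 14 lower around the fall of Pik3r3.

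Metabolic and stress lists had medians close to 0. Of 71 nuclear oxidative phosphorylation genes 45 were higher (median 0.018, range -0.08 to 0.18), with Ndufa5, a complex I subunit gene, at 0.18, SE 0.068 (adjusted p = 0.65). Of 56 cytosolic ribosomal protein genes 38 were higher (median 0.010). Glycolysis and hypoxia genes were split 16 higher and 20 lower around the fall of Ddit4, and heat shock and cold-inducible genes 9 higher and 11 lower around the fall of Rbm3. Antioxidant and selenoprotein genes were split 22 higher and 21 lower around the rise of Selenov, and chromatin remodellers 10 higher and 18 lower around the rise of Baz1a. Of 29 matrix genes 21 were higher (median 0.084) beside the rise of Loxl3, with a list mean of 6.06, 6.24 and 6.44 in Ts65Dn and 5.90, 6.17 and 6.34 in EupTs65Dn (0.08, SE 0.028). The lowest Ts65Dn mean of the matrix list, 6.06, was that of replicate 18. The pericyte and meninges list, cells that make much of this matrix, was split 10 higher and 12 lower (median -0.029).

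Lists of markers of neighbouring regions and other tissues were examined as well. Midbrain and hindbrain genes were higher in Ts65Dn in 16 of 23 cases (median 0.12, 0.10, SE 0.043 for the list mean), and 17 of 23 Ts65Dn embryos lay above the euploid median. These genes read dim, with their median at percentile 33.8 of signal over all probe sets. None was called or had an unadjusted p under 0.05. Foxa1 and Slc6a4, genes of floor plate and serotonin neurons, had differences of 0.28, SE 0.15 (adjusted p = 0.91) and 0.20, SE 0.12 (adjusted p = 0.93). The diencephalon, itself a part of the forebrain, had 24 probe sets of 22 genes, split 15 higher and 9 lower (median 0.050), with Pomc at 0.30, SE 0.13 (adjusted p = 0.81) and Rax at -0.25, SE 0.13 (adjusted p = 0.9). Choroid plexus and ependyma genes were split 15 higher and 5 lower (median 0.054), with Calml4 at 0.25, SE 0.11 (adjusted p = 0.81) and Ccdc153 at -0.37, SE 0.16 (adjusted p = 0.81). The placenta list, 28 probe sets of 27 genes, was split 15 higher and 13 lower, erythroid genes 6 and 7 and microglia genes 8 and 10, with 0 called in each. The part of such cells and regions in the results above was not tested.

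How the 28 genes scale from embryo to embryo was examined in 2 ways. In the first, each embryo was left out, genes were called again without it, and the left-out embryo was placed between the group medians of those genes. Between 17 and 32 genes were called in these fits. Ts65Dn embryos were nearer to the Ts65Dn median for 40.6% to 87.5% of the genes (median 62.1%), and EupTs65Dn embryos for 17.4% to 50% (median 37.98%). Over 50% of the genes were nearer to the Ts65Dn median in 21 of 23 Ts65Dn embryos and in 0 of 18 EupTs65Dn embryos. The 2 Ts65Dn embryos that were not were replicate 18, at 13 of 32 genes (40.6%), and replicate 11 of litter TS125, at 13 of 28 (46.4%). Replicate 11 had a Mmu16 mean of 5.55, inside the range of the other Ts65Dn embryos, and is 1 of the 8 arrays in which Y-linked signal contradicts the labelled sex. Replicate 18 was at the euploid level of both the Mmu16 and the Mmu17 segment and also lowest of the Ts65Dn embryos on genes outside them. With its genotype label in question, its position does not show how outside genes scale among trisomic embryos.

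**Figure D5:**
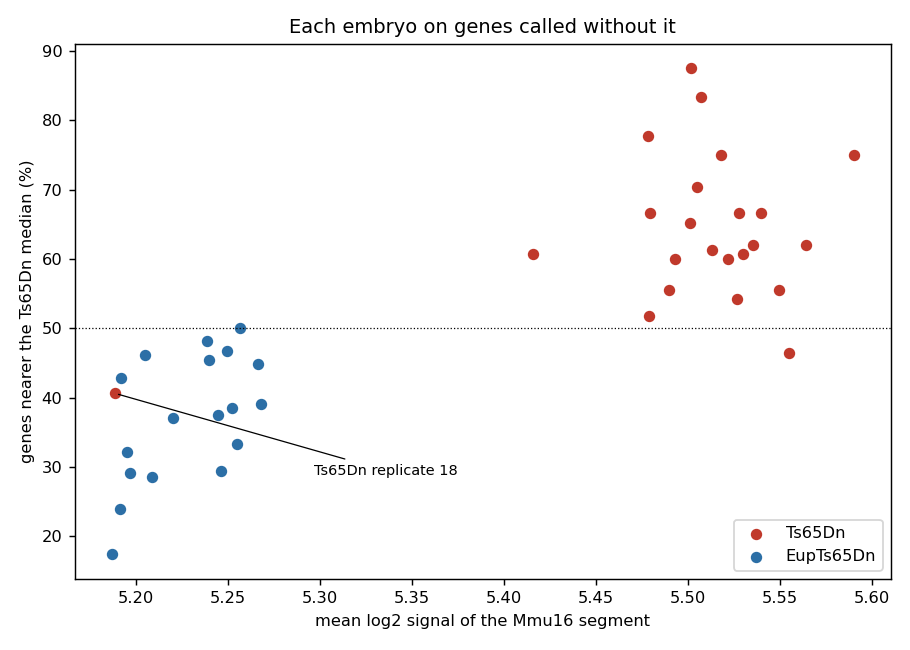
Percent of called genes outside the segments for which an embryo lay nearer the Ts65Dn median (vertical axis), from calls made without that embryo, against its mean log2 signal over the Mmu16 segment (horizontal axis), Ts65Dn in red and EupTs65Dn in blue. Euploid embryos reach 50% at most, and Ts65Dn replicate 18 lies among them at 40.6%.

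In the second, the level of each of the 28 genes was related to the Mmu16 mean within the 23 Ts65Dn embryos, after subtracting litter means (28 relations, permutation within litter with 100000 resamples, two-sided). Pearson's r was in the direction of the genotype difference for 17 of the 28 genes. After Benjamini-Hochberg adjustment 0 passed at 10% by Pearson's r or Spearman's rho, and 1 and 2 had an unadjusted p under 0.05. Pram1 had the smallest p by Pearson's r, with r = -0.59 (permutation p = 0.049, adjusted p = 0.56), opposite in sign to its rise in Ts65Dn, and rho = -0.38 (permutation p = 0.11, adjusted p = 0.93). Deaf1 had r = -0.59 (permutation p = 0.055, adjusted p = 0.56) and rho = -0.49 (permutation p = 0.044, adjusted p = 0.63). Ifitm2 had r = 0.46 (permutation p = 0.12, adjusted p = 0.64) and rho = 0.36 (permutation p = 0.15, adjusted p = 0.93). Cpa6, which rose in Ts65Dn, had rho = -0.40 (permutation p = 0.045, adjusted p = 0.63). The r values of Pram1, Deaf1 and Ifitm2 rested on replicate 18: without it r was -0.22 for Pram1 (permutation p = 0.40), -0.20 for Deaf1 (permutation p = 0.45) and 0.12 for Ifitm2 (permutation p = 0.61), and r lay in the direction of the genotype difference for 12 of 28 genes. Without the 2 embryos farthest from the median Mmu16 mean, replicates 18 and 23, that number was 11, and r was -0.06 for Pram1, -0.27 for Deaf1 and -0.20 for Ifitm2. In those 21 embryos Baz1a passed with r = -0.67 (permutation p = 0.0023, adjusted p = 0.065) and rho = -0.71 (permutation p = 0.00245, adjusted p = 0.069), opposite in sign to its rise in Ts65Dn. With replicate 18 alone left out Baz1a had r = -0.56 and did not pass (permutation p = 0.022, adjusted p = 0.61). In the 18 EupTs65Dn embryos r ran from -0.72 to 0.74 over the same genes, with 0 past the adjustment. The Mmu16 mean of the other 22 Ts65Dn embryos covered only 5.42 to 5.59, which limits what such a relation can show.

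The Ts66Yah colony gives the same trisomic Mmu16 part without the Mmu17 part. Its arrays include 1 with a low spread of signal, EupTs66Yah replicate 16, which was left out for the values given here. Of the 28 genes, 22 had the same sign in Ts66Yah and 8 passed there, where 0.762% of all probe sets outside passed: Selenov, Antkmt, Cdkl3, Ifitm2, Idh2, Pnck, Pik3r3 and Rbm3. With the low-spread array kept, 19 of the 28 had the same sign and 3 passed, where 0.185% of all probe sets outside passed. The share of all probe sets outside with the same sign in both models is not given here. Ifitm2 was higher by 0.30 in Ts66Yah and by 0.32 in Ts65Dn, and Rbm3 differed by -0.19 in Ts66Yah and -0.23 in Ts65Dn. With the low-spread array kept, the Ts66Yah difference was 0.34 for Ifitm2 (adjusted p = 0.013), while that of Rbm3 turned to 0.16 (adjusted p = 0.75). Deaf1 differed by -0.01 in Ts66Yah (0.15 with the low-spread array kept) and -0.25 in Ts65Dn, but the difference of the effects did not pass (adjusted p = 0.105). The difference of the effects passed for 3 genes outside the segments (0.0155% of those tested), of which 1, Speer4f1, is among the 28 (0.74, adjusted p = 0.023). It also passed for 4 of the unplaced probe sets. It passed for 0 genes outside the segments when the low-spread array was kept (limma, 0 called, 1408 of 22206 probe sets at an unadjusted p under 0.05).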

How the data were processed

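Forebrain RNA of mouse embryos was hybridised to Clariom S arrays, 1 array per embryo. The authors deposited 1 log2 signal per probe set and array, made with RMA per the submitters' processing notes. The RMA version is not stated, and the genome build of the annotation was also not given in the sources used here. Of 22206 probe sets, 19572 carried 1 gene symbol; 121 lay in the Mmu16 segment, 41 in the Mmu17 segment, 19410 outside, and 2634 were unplaced. Gene order came from a RefSeq gene table. No filter on signal was applied.

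The contrast of Ts65Dn with EupTs65Dn was fitted in limma 3.58.1 (lmFit and eBayes, R 4.3.3), two-sided, with the litter (dam) as a fixed block. Adjustment was by Benjamini-Hochberg over every probe set, and calls were made at 10%. Interactions with sex, litter and the Ts66Yah effect were tested likewise. Littermates of unlike genotype deviated together slightly (mean r 0.047 over 67 pairs, against -0.009 over 347 pairs of non-littermates), and the pairing by litter comes from the labels. In simulated data, 34 of the genes changed by 0.4 and 49 of those changed by 0.8 (log2) were recovered of 50 each, and 10.3% of calls were false. The simulated noise was drawn separately for each probe set, without deviations shared between genes and without an embryo off its label. These figures may therefore not hold for the real arrays. The number of arrays limits the precision.

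Genes were named from all genes called outside the segments, up to 3 passing members of each list or else its 2 with the smallest p, and App, Sod1, Dyrk1a, Ezr and Arid1b. Ifitm1 and Ifitm3 were chosen after their values were seen. Members and lists were chosen with earlier results of these data known. Alternatives included no block, a random block, sex or signal spread as a covariate, the methods' t-test, other thresholds, filters, normalizations and priors, and leaving out each litter or the arrays at odds with their labels. Columns of the values table without a sample numbered 0. Plots used matplotlib 3.10.9 (Python 3.11.15).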

Additional observations from a re-analysis of the deposited data

Results flagged for a closer look

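The effect of the trisomy differed between the models for 3 genes outside the segments once the low-spread array, EupTs66Yah replicate 16, was left out (limma test of the difference, Ts65Dn effect minus Ts66Yah effect, Benjamini-Hochberg adjusted). With that array kept, 0 genes outside passed. Speer4f1, of a multigene family expressed in testis, had a difference of effects of 0.74 (adjusted p = 0.023), with 0.52 in Ts65Dn and -0.21 in Ts66Yah. Hapln4, a link protein gene of perineuronal matrix, had a difference of effects of -0.67 (adjusted p = 0.027), with -0.14 in Ts65Dn and 0.52 in Ts66Yah. Map3k11, a gene of JNK signalling, had a difference of effects of -0.71 (adjusted p = 0.083), with -0.44 in Ts65Dn and 0.28 in Ts66Yah. Of these 3 genes, only Speer4f1 passed the test within Ts65Dn. The cause of the differences was not tested.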

How the results depend on the processing

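Outside the segments 28 genes passed with the litter as a block and 20 with no replicate block, 18 of them shared. Counts were 14 at a threshold of 0.05, 132 by the looser marginal rule stated in the series' methods, and 18 without the arrays at odds with the labelled sex. Leaving out each litter in turn gave 14 (without TS11) to 25. Across the other settings it was 20 to 32. Of the 28 genes, 4 kept their call throughout, 6 lost it in 1 to 3 settings, 6 in 4 to 7 and 12 in 8 or more, and no direction reversed. The difference between the models gave 3 genes without the low-spread array and 7 when the arrays at the other Mmu16 level were left out too, against 0 with all arrays. The interactions with sex and litter kept 0 calls under the alternatives run, and so did the relation to the Mmu16 mean, except that Baz1a passed without the 2 farthest embryos. The causes of these changes were not tested. Signal over background is not given for these arrays, so dim probe sets such as Cpa6 and Erich6b cannot be told from background.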
